A study of Homo sapiens with 24 samples.

Results

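The 47 genes described here are interferon response genes: transcription factors, sensors, enzymes and antiviral proteins whose mRNA rises when a cell responds to type I interferon. They were chosen by symbol, and all 47 were found among the 23595 genes measured in each of 4 tables. Their mRNA was measured by poly(A) RNA sequencing in 2 human cell lines labelled as acute myeloid leukaemia, IMS-M2 and U937, which is a monocytic line. Each line was cultured with folic acid (FA), the vitamin that cells use for one-carbon metabolism, or without it, and was treated with the agent labelled OTX or with the solvent DMSO. The 8 groups are therefore IMS-M2+FA DMSO, IMS-M2+FA OTX, IMS-M2-FA DMSO, IMS-M2-FA OTX, U937+FA DMSO, U937+FA OTX, U937-FA DMSO and U937-FA OTX, with 3 libraries in each and 24 in all. The labels do not spell out OTX and give neither its dose nor the times of treatment or of growth without FA. They do not state if the 3 libraries of each condition are separate cultures either, so p-values measure only the spread between these libraries. The labels mention no added interferon.

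Type I interferon binds its receptor and activates the kinases JAK1 and TYK2, which phosphorylate STAT proteins. STAT2 and IRF9 are subunits of ISGF3, a complex that binds interferon-stimulated response elements near the start of target genes. IRF7 amplifies the response by driving interferon alpha genes, and IRF1 carries much of the response to interferon gamma. Many of these genes also have a basal level in blood cells without added interferon.

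The start regions of 5 genes are shown because their levels moved in opposite directions or because they are standard targets of the pathway. Sequences are from RefSeq on GRCh38.p14, run from 250 bases before the start to 50 bases after it, and are written 5′ to 3′ on the gene's strand. Capitals mark GAAANNGAAA or its reverse complement TTTCNNTTTC, a core of the response element, and matches may overlap. IFIT3 lies at chr10:89327747-89328046 on the + strand (the first of 2 listed starts), IFI6 at chr1:27672143-27672442 on the - strand and ISG15 at chr1:1013247-1013546 on the + strand. IFITM1 lies at chr11:313790-314089 on the + strand and IFITM3 at chr11:320811-321110 on the - strand.
IFIT3: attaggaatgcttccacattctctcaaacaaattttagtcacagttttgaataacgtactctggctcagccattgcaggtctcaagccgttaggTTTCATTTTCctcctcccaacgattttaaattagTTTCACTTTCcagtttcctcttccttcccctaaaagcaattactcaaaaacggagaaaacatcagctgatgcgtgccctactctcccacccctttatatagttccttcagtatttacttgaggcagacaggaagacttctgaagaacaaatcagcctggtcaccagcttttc
IFI6: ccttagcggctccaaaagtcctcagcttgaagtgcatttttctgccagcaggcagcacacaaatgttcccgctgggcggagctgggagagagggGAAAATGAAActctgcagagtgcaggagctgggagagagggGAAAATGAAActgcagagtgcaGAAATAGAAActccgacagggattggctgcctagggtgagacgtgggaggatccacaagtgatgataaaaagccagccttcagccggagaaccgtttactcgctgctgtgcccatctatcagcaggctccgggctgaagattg
ISG15: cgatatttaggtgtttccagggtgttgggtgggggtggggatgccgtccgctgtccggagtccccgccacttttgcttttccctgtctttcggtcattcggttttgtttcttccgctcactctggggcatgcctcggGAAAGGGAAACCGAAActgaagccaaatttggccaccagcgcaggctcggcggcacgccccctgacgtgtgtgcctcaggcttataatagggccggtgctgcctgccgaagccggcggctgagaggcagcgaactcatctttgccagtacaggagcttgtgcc
IFITM1: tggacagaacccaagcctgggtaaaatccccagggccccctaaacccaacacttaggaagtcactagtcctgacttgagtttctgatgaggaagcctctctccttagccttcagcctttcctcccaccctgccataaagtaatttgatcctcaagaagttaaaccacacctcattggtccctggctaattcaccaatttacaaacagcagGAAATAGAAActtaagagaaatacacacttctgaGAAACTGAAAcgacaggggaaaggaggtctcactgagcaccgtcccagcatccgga
IFITM3: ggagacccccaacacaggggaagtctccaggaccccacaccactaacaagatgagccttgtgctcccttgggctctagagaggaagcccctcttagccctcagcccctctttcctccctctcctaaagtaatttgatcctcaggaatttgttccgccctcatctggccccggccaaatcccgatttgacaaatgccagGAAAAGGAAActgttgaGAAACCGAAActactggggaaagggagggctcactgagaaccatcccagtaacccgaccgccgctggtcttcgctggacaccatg

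IFIT3, ISG15, IFITM1 and IFITM3 each hold 2 matches and IFI6 holds 3. Of the 47 genes, 39 had a start in the RefSeq table and 25 of those held the motif at a start. The motif was in 30 of their 55 start windows (54.5%) and in 1255 of 35116 windows of the whole table (3.57%). IRF7, OAS2, OASL, IFIT2, IFITM2, MX2, TRIM22 and USP18 were not matched. A match describes these letters and is not a measured binding site.

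Levels are in FPKM, sequenced fragments per length of transcript and per size of library, as deposited. The FPKM values of a library summed to between 522659 and 644841. Between 10418 and 10894 genes per library were at 1 FPKM or more. Of the 47 genes, 41 reached a mean of 1 FPKM in at least 1 group. OAS2, IFIT5, MX1, IFI27, IFI44 and IFI44L did not. Libraries of a group correlated at 0.989 to 0.997 across genes on the log2 scale. Of 15 myeloid markers listed, PTPRC, SPI1 and CD33 were present in every group, and others were not. CD14 was under 0.1 FPKM in every IMS-M2 group and CD34 in every U937 group. MPO, CSF3R and CSF1R were under 0.1 FPKM in IMS-M2 with OTX in both media, and KIT and FLT3 in U937 with OTX in both media.

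The interferon genes themselves were almost absent from the tables. Of 21 interferon genes listed, 18 were matched, 12 of these were listed at 0 in all 24 libraries, and none reached the level needed for a test. IFNB1, interferon beta, had the highest single value at 0.0934 FPKM and was listed at 0 in 16 of 24 libraries.

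OTX moved interferon response genes in both directions, and the balance differed between the lines. A change is the difference of the group means of log2(FPKM + 1), OTX minus DMSO, which understates changes of low genes. It was tested with limma over the genes whose mean reached 1 FPKM in some group, and a call means a Benjamini-Hochberg adjusted p under 0.05. In IMS-M2+FA, 7 of the 35 members tested rose and 18 fell, where 29.8% of all genes tested rose and 33.4% fell. That is 20% and 51.4% of the members, and the members' median change was -0.25 against -0.03 for all genes. The number that rose was 4 without IMS-M2+FA OTX replicate 1. In IMS-M2-FA, 10 of 35 rose and 16 fell, where 27.5% of all genes rose and 30% fell, with a median of -0.13 against -0.01.

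In U937+FA, 15 of the 36 members tested rose and 10 fell, where 29.1% of all genes rose and 27% fell. The median change was 0.01 against 0.03. In U937-FA, 20 of 36 rose and 8 fell, where 28% of all genes rose and 31.7% fell, with a median of 0.36 against -0.02. The share of members that fell in IMS-M2+FA (51.4%) and the share that rose in U937-FA (55.6%) lay furthest from these backgrounds. So many genes responded to OTX in each line that the members' counts are given only beside those shares. In bulk RNA, fewer cells of a type and less RNA per cell cannot be told apart.

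**Figure D1:**
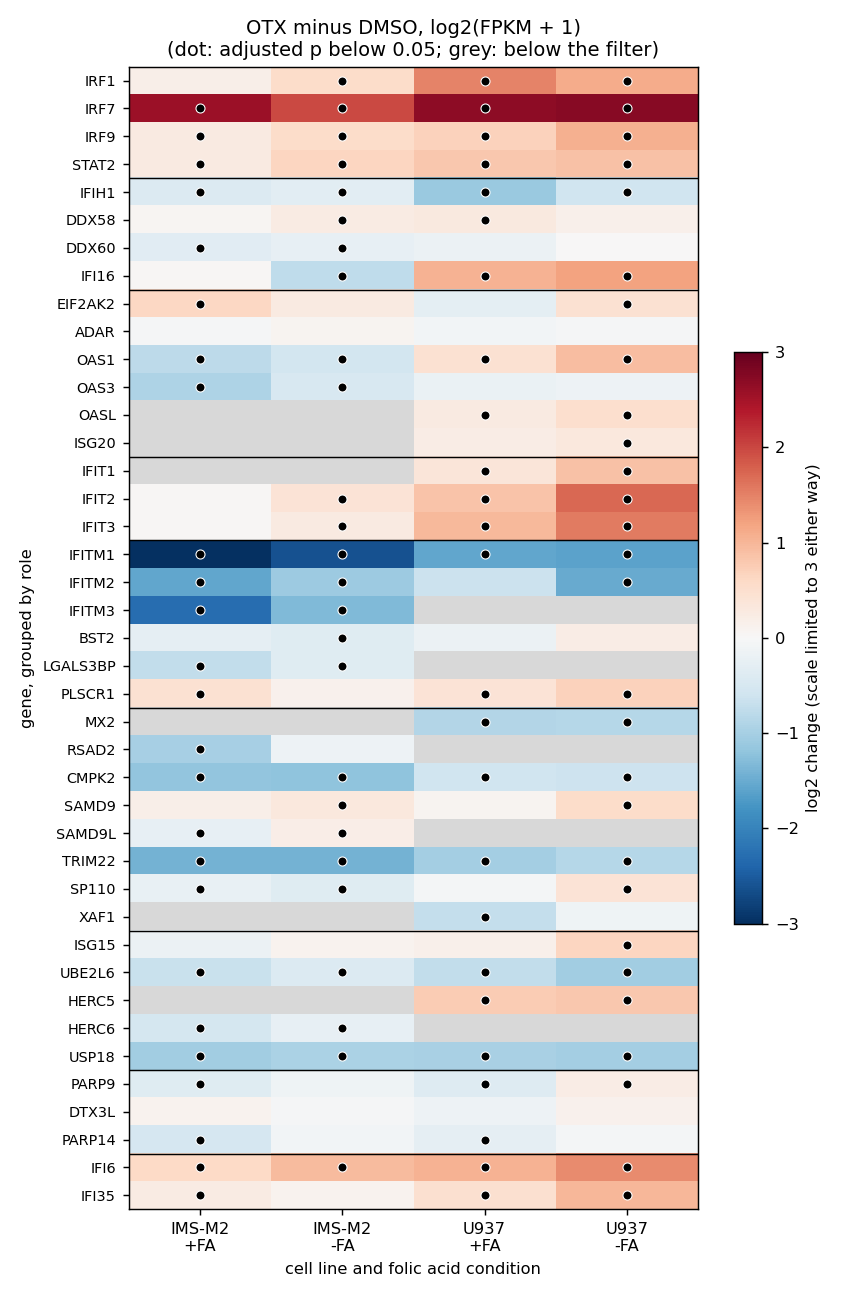
Change of each member that reached 1 FPKM in a group (rows) in the 4 OTX comparisons (columns), as OTX minus DMSO in mean log2(FPKM + 1). Red is higher and blue lower with OTX, colour ends at 3, dots mark adjusted p under 0.05 and grey marks members not tested. The IFITM genes, TRIM22 and CMPK2 are blue in IMS-M2, IRF7 is red in all 4 columns and the IFIT genes are red in U937.

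Of the 30 members tested in all 4 comparisons, 4 rose in every one (13.3%, where 11.4% of 10220 genes did) and 6 fell in every one (20%, against 11.8%). IRF7, IRF9, STAT2 and IFI6 were the 4 that rose. IFITM1, TRIM22, CMPK2, UBE2L6, USP18 and IFIH1 were the 6 that fell. OAS1 was the single member that fell in both IMS-M2 comparisons and rose in both U937 comparisons (3.33%, against 1.21%).

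Of the 4 regulators, 3 rose in IMS-M2+FA and all 4 in each of the other comparisons of OTX with DMSO. Of all genes tested, 27.5% to 29.8% rose in a comparison. The change of IRF7 was the largest of the 4 each time. IRF7, the transcription factor of the interferon alpha genes, lies at chromosome 11, 612554 to 615999, in hg19, the build of the deposited tables. In IMS-M2+FA its level was 4.92, 3.38 and 4.34 FPKM with DMSO and 30.6, 25.5 and 33.6 FPKM with OTX. In IMS-M2-FA it was 7.66, 5.78 and 6.48 FPKM with DMSO and 28.8, 24.2 and 34.5 FPKM with OTX. Every OTX library lay above every DMSO library of its line and medium. The log2 changes were 2.57 (SE 0.149, adjusted p = 1.79e-08) and 1.97 (SE 0.149, adjusted p = 2.39e-07).

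Set beside IMS-M2 without a test, U937 had lower IRF7 levels with DMSO in both media. With OTX the U937 libraries lay below those of IMS-M2 with FA and overlapped them without FA. In U937+FA the IRF7 values were 1.54, 1.82 and 2.16 FPKM with DMSO and 20.3, 15.6 and 15.6 FPKM with OTX. In U937-FA they were 3.16, 3.51 and 2.40 FPKM with DMSO and 26.3, 28.3 and 22.9 FPKM with OTX. The groups did not overlap, and the log2 changes were 2.67 (SE 0.136, adjusted p = 8.33e-08) and 2.74 (SE 0.136, adjusted p = 5.94e-08).

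IRF9, the DNA-binding subunit of ISGF3, rose in all 4 comparisons by smaller amounts. In IMS-M2+FA it was at 6.12, 7.47 and 7.33 FPKM with DMSO and at 9.03, 7.29 and 9.69 FPKM with OTX. These groups overlapped, since OTX replicate 2 lay below DMSO replicates 2 and 3. The log2 change was 0.27 (SE 0.0988, adjusted p = 0.028), and the call was lost without DMSO replicate 1 (adjusted p = 0.1), OTX replicate 1 (0.0891) or OTX replicate 3 (0.125).

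The other IRF9 comparisons did not overlap. In IMS-M2-FA the values were 7.30, 6.79 and 7.07 FPKM with DMSO and 11.5, 10.4 and 10.8 FPKM with OTX, a log2 change of 0.56 (SE 0.0988, adjusted p = 0.000368). In U937+FA they were 2.69, 2.28 and 2.59 FPKM with DMSO and 4.51, 4.76 and 4.76 FPKM with OTX (0.69, SE 0.0832, adjusted p = 3.32e-05). In U937-FA they were 3.86, 3.84 and 4.66 FPKM with DMSO and 9.91, 10.2 and 8.91 FPKM with OTX (1.06, SE 0.0832, adjusted p = 1.21e-06). Without FA the OTX libraries averaged 9.68 FPKM in U937 and 10.9 FPKM in IMS-M2, from DMSO means of 4.12 and 7.05 FPKM.

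STAT2, the subunit of ISGF3 that carries its activation domain, rose in all 4 comparisons without overlap. In IMS-M2+FA it was at 9.18, 8.88 and 10.5 FPKM with DMSO and at 12.2, 10.6 and 12.2 FPKM with OTX, a log2 change of 0.27 (SE 0.0837, adjusted p = 0.0141). That call was lost without DMSO replicate 2 (adjusted p = 0.0584), OTX replicate 1 (0.0544) or OTX replicate 3 (0.0551). In IMS-M2-FA the values were 7.97, 8.33 and 8.18 FPKM with DMSO and 13.5, 12.2 and 14.2 FPKM with OTX (0.64, SE 0.0837, adjusted p = 3.39e-05).

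The U937 values of STAT2 were tight within groups. With FA they were 7.54, 6.73 and 7.14 FPKM with DMSO and 13.5, 13.4 and 12.9 FPKM with OTX (0.81, SE 0.0668, adjusted p = 2e-06). Without FA they were 8.30, 7.83 and 8.84 FPKM with DMSO and 16.3, 16.4 and 15.8 FPKM with OTX (0.88, SE 0.0668, adjusted p = 9.31e-07).

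IRF1, the factor linked most to interferon gamma, rose in 3 of the 4 comparisons. In IMS-M2+FA its values of 10.6, 11.6 and 13.9 FPKM with DMSO overlapped those of 13.4, 12.9 and 14.9 FPKM with OTX, and the log2 difference of 0.18 did not pass the test (SE 0.097, adjusted p = 0.114). In IMS-M2-FA it was at 14.4, 12.1 and 13.3 FPKM with DMSO and at 20.3, 18.9 and 20.1 FPKM with OTX (0.55, SE 0.097, adjusted p = 0.0004). The remaining 3 comparisons had no overlap.

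In U937+FA, IRF1 was at 3.53, 2.83 and 2.99 FPKM with DMSO and at 11.4, 9.42 and 11.1 FPKM with OTX (1.50, SE 0.112, adjusted p = 1.04e-06). In U937-FA it was at 5.47, 4.85 and 6.89 FPKM with DMSO and at 13.8, 13.4 and 13.4 FPKM with OTX (1.12, SE 0.112, adjusted p = 7.43e-06). IRF1 had no motif match at its start, nor had IRF9 or STAT2.

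**Figure D2:**
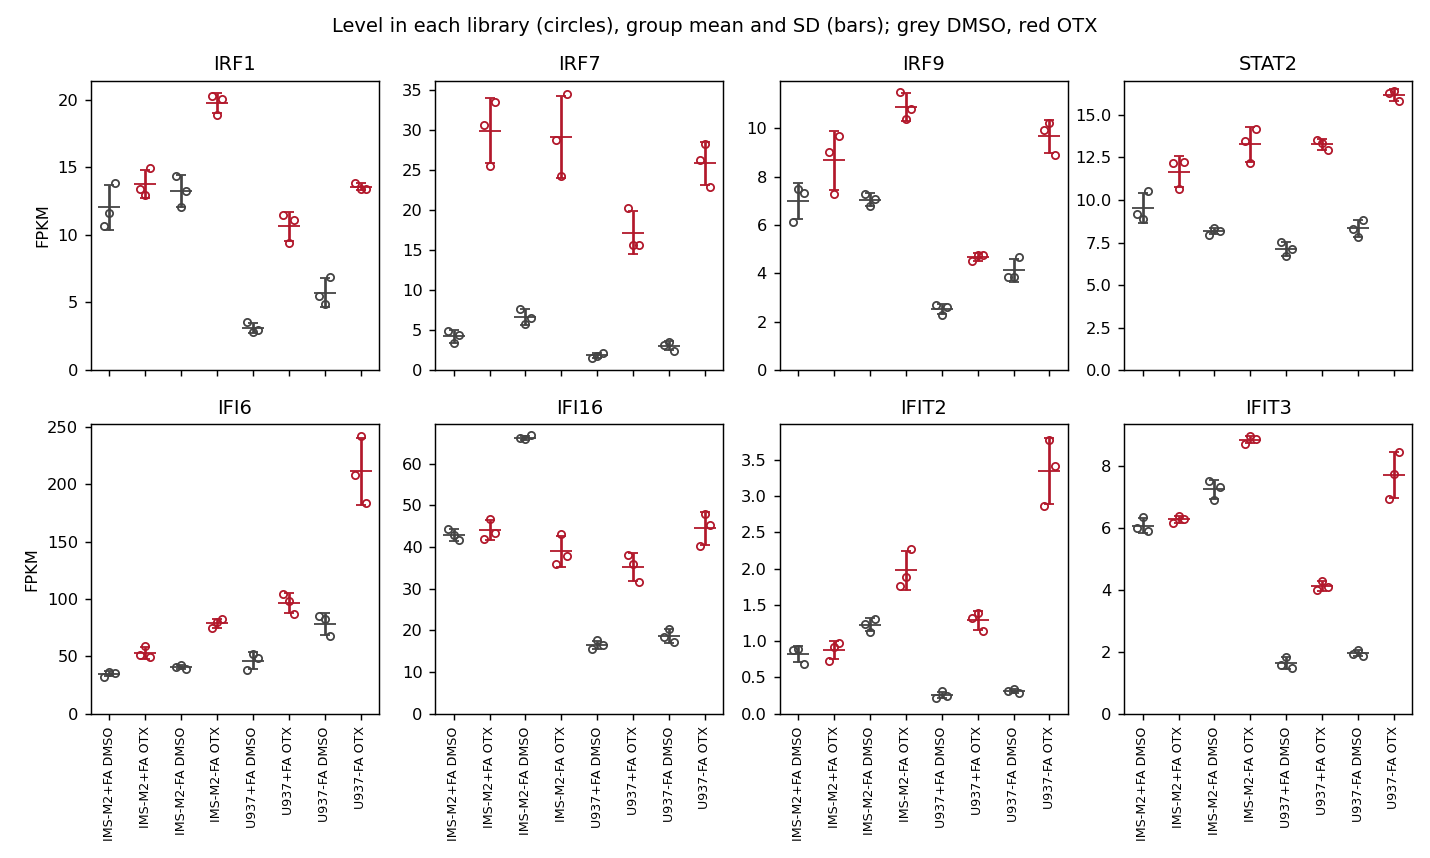
FPKM in each library (circles) for IRF1, IRF7, IRF9, STAT2, IFI6, IFI16, IFIT2 and IFIT3 in the 8 groups, with bars for the group mean and SD over 3 libraries (DMSO grey, OTX red, axes linear from 0). IRF7 with OTX lies between 15.6 and 34.5 FPKM in every library, above all DMSO libraries, and IFI16 is highest in the IMS-M2-FA DMSO libraries.

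Among the nucleic acid sensors, IFIH1 and IFI16 changed most. IFIH1 (MDA5), which senses long double-stranded RNA, fell in all 4 comparisons. In U937+FA it was at 5.79, 6.31 and 5.11 FPKM with DMSO and at 2.11, 2.24 and 2.03 FPKM with OTX, with no overlap (-1.10, SE 0.0812, adjusted p = 9.01e-07). DDX58 (RIG-I), which senses RNA with a 5′ triphosphate, moved little: its group means lay between 1.17 and 2.27 FPKM, and it rose in IMS-M2-FA (0.25, adjusted p = 0.0299) and U937+FA (0.29, adjusted p = 0.0135). Leaving out 1 library ended either call: adjusted p reached 0.0996 without IMS-M2-FA OTX replicate 2 (also lost without OTX replicate 3 or DMSO replicate 2 or 3) and 0.0625 without U937+FA OTX replicate 3 (also lost without DMSO replicate 2).

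IFI16, a DNA sensor, went opposite ways in the lines without FA. In IMS-M2-FA it fell from 66.3 ± 0.492 to 39.0 ± 3.77 FPKM (mean ± SD, n = 3 libraries), a log2 change of -0.76 (limma adjusted p = 4.09e-06). In U937-FA it rose from 18.6 ± 1.60 to 44.5 ± 3.90 FPKM (1.22, limma adjusted p = 1.43e-06). With FA, IMS-M2 was at 43.0 FPKM with DMSO and 44.1 FPKM with OTX (0.03, adjusted p = 0.707) and U937 rose from 16.5 to 35.2 FPKM (1.04, adjusted p = 5.11e-06).

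Of the RNA enzymes and their relatives, 6 were tested across the lines: EIF2AK2, ADAR, OAS1, OAS3, OASL and ISG20. OASL and ISG20 were below the level tested in IMS-M2 and entered through U937. With FA the change was called higher in U937 for 3 and lower for 1, where 27.7% and 22.9% of all genes were called. Without FA it was called higher for 2 and lower for 0, where 21.5% and 21.5% were called. OAS1, which makes the 2′-5′ oligoadenylates that activate RNase L, fell in IMS-M2+FA from 3.09 to 1.38 FPKM (-0.78, adjusted p = 3.67e-06) and in IMS-M2-FA from 3.99 to 2.42 FPKM (-0.55, adjusted p = 8.89e-05). It rose in U937+FA from 1.02 to 1.78 FPKM (0.46, adjusted p = 0.0012) and in U937-FA from 2.25 to 5.19 FPKM (0.93, adjusted p = 6.05e-06). OAS3, a second synthetase, fell in IMS-M2+FA (20.4 to 10.4 FPKM) and IMS-M2-FA (18.03 to 12.6 FPKM), and its changes in U937 of -0.20 and -0.15 did not pass. ADAR, which edits adenosines in double-stranded RNA, passed in no comparison: its group means lay between 49.7 and 55.7 FPKM. EIF2AK2, the kinase PKR that halts translation, rose in IMS-M2+FA (0.63, adjusted p = 0.000788) and U937-FA (0.46, adjusted p = 0.00774). Its differences in the other comparisons did not pass.

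The mRNAs of the IFIT proteins, which bind viral RNA, rose in U937. All 3 tested members of the family (IFIT1, IFIT2 and IFIT3) passed there with and without FA, where 29.1% and 28% of all genes rose. IFIT3, the partner of IFIT1, was at 1.91, 2.06 and 1.87 FPKM in U937-FA with DMSO and at 6.93, 7.73 and 8.44 FPKM with OTX. The 3 OTX libraries lay far above the 3 DMSO libraries, a log2 change of 1.56 (SE 0.0807, adjusted p = 7.43e-08). In U937+FA the change was smaller, from 1.63 to 4.12 FPKM (0.96, adjusted p = 2.23e-06). In IMS-M2+FA neither tested IFIT gene passed (IFIT3 0.04 and IFIT2 0.05), and in IMS-M2-FA both rose, IFIT2 by 0.42 and IFIT3 by 0.26.

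The mRNAs of the IFITM proteins, which block virus entry at membranes, fell in IMS-M2 with and without FA. IFITM1 had the most negative change of the tested members in each of the 4 comparisons. IFITM1, IFITM2 and IFITM3 are neighbouring near-identical genes, so reads may be split between them and their single values are uncertain. IFITM1 (chromosome 11, 313990 to 315272, hg19) was at 178.6, 223.6 and 267.0 FPKM in IMS-M2+FA with DMSO and at 18.6, 15.9 and 19.6 FPKM with OTX. Every OTX library was more than 100 FPKM below every DMSO library, a log2 change of -3.54 (SE 0.161, adjusted p = 1.87e-09). In IMS-M2-FA the values were 195.1, 146.3 and 191.0 FPKM with DMSO and 26.7, 24.4 and 33.5 FPKM with OTX (-2.61, SE 0.161, adjusted p = 3.75e-08).

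IFITM1 was lower in U937 but fell there too. In U937+FA the values were 32.9, 23.7 and 31.1 FPKM with DMSO and 7.92, 9.81 and 9.90 FPKM with OTX (-1.56, SE 0.152, adjusted p = 7.03e-06). In U937-FA they were 18.6, 16.1 and 22.6 FPKM with DMSO and 6.35, 4.76 and 5.64 FPKM with OTX (-1.61, SE 0.152, adjusted p = 4.89e-06). No OTX library reached a DMSO library.

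IFITM3 was a gene of IMS-M2 in these tables. In IMS-M2+FA it was at 165.7, 214.4 and 311.1 FPKM with DMSO and at 41.4, 36.5 and 61.3 FPKM with OTX (-2.27, SE 0.243, adjusted p = 4.84e-06). In IMS-M2-FA it was at 156.1, 107.8 and 175.7 FPKM with DMSO and at 63.4, 49.3 and 59.7 FPKM with OTX (-1.32, SE 0.243, adjusted p = 0.000535). Its means in the U937 groups lay between 0.224 and 0.902 FPKM, below the level tested.

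IFITM2 had the highest level of the 3 in both lines. In IMS-M2+FA it was at 826.2, 1130.0 and 1364.0 FPKM with DMSO and at 381.8, 320.6 and 414.4 FPKM with OTX (-1.55, SE 0.159, adjusted p = 3.34e-06). In IMS-M2-FA it was at 835.1, 685.3 and 736.7 FPKM with DMSO and at 338.0, 335.5 and 379.4 FPKM with OTX (-1.09, SE 0.159, adjusted p = 7.82e-05). Every OTX library of IMS-M2 lay below every DMSO library of its medium. In U937+FA it was at 789.9, 609.5 and 682.6 FPKM with DMSO and at 400.5, 414.4 and 514.3 FPKM with OTX, a log2 difference of -0.65 (SE 0.269, adjusted p = 0.0595) that did not pass. In U937-FA it was at 687.9, 470.6 and 1223.0 FPKM with DMSO and at 287.2, 224.3 and 260.7 FPKM with OTX (-1.52, SE 0.269, adjusted p = 0.000521). The U937 groups did not overlap either, though DMSO column 2 of U937-FA stood well above the other DMSO libraries.

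The 3 IFITM genes together held 21.7 to 72.2% of the members' summed FPKM in a library. In IMS-M2+FA their share went from 59.9 to 72.2% of the sum with DMSO to 36.7 to 42.4% with OTX. The sum over all 47 genes went from 1954 to 2690 FPKM per library to 1018 to 1167 FPKM. In U937-FA the share went from 44.3 to 71% to 21.7 to 27.3%, while the sum of the other 44 genes went from 508.4 to 612.6 FPKM to 732.4 to 828.7 FPKM. In U937+FA the share went from 55.7 to 62.2% to 40.8 to 51.3%, and the sums of the other 44 genes overlapped, at 500.9 to 522.7 FPKM with DMSO and 496.8 to 594 FPKM with OTX.

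**Figure D3:**
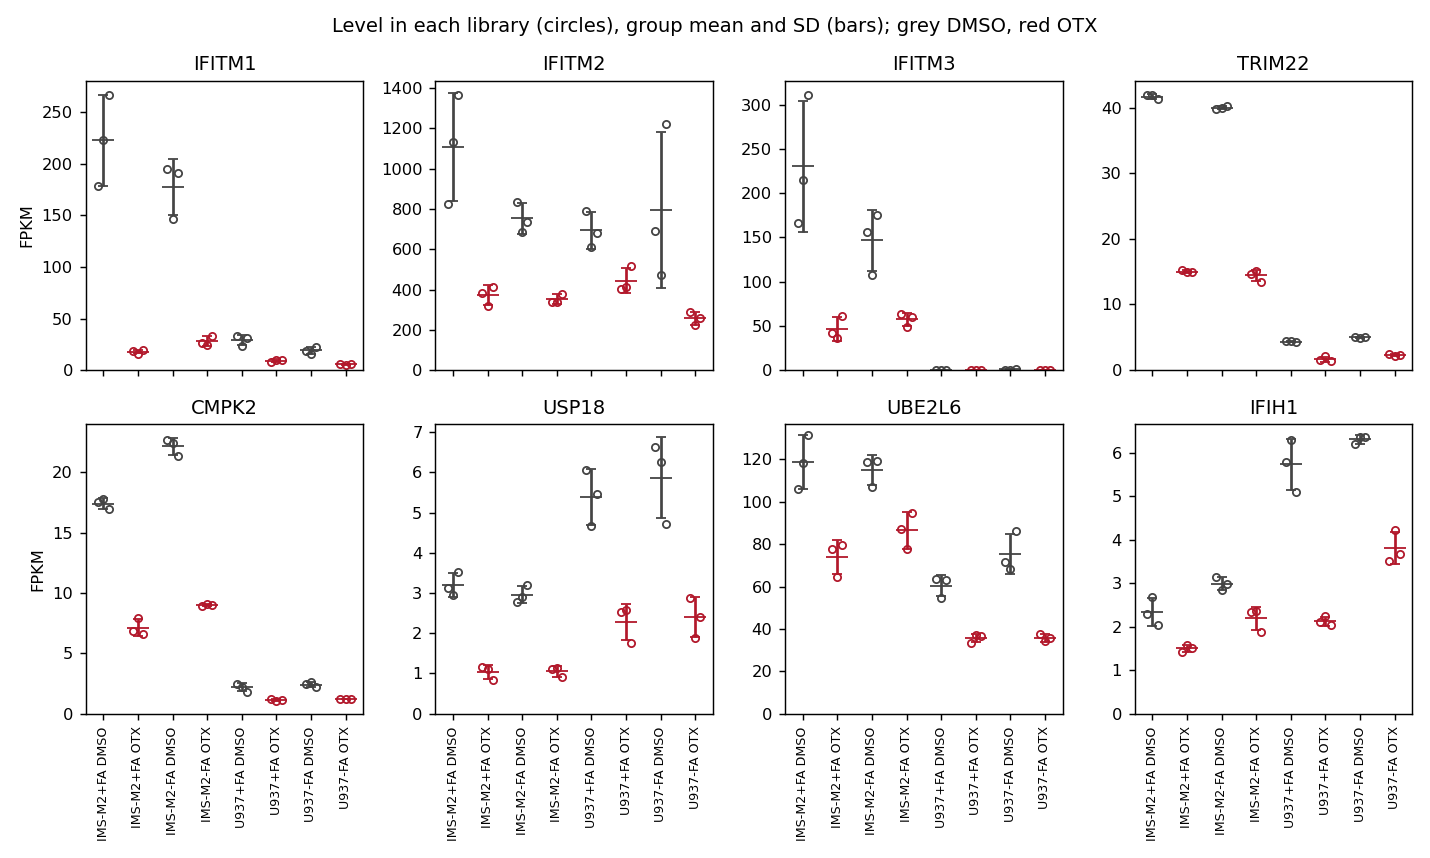
FPKM in each library (circles) for IFITM1, IFITM2, IFITM3, TRIM22, CMPK2, USP18, UBE2L6 and IFIH1 in the 8 groups, with bars for the group mean and SD over 3 libraries (DMSO grey, OTX red). IFITM1 with OTX lies at 33.5 FPKM or lower in every library, and IFITM3 in U937 is at or near 0 on this scale.

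**Figure D4:**
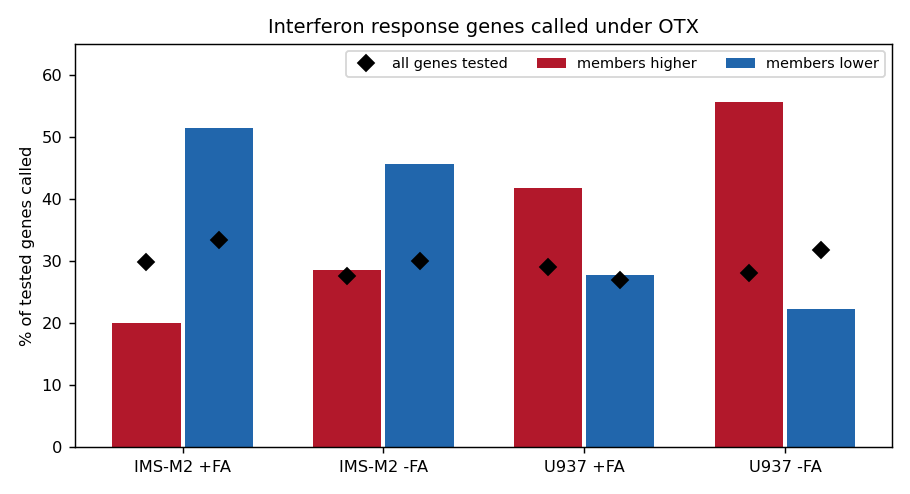
Share of members and of all genes tested that rose or fell with OTX, in percent, for each of the 4 comparisons. The members' share that fell is above that of all genes in IMS-M2 (51.4% against 33.4% with FA), and the members' share that rose is above it in U937 (55.6% against 28% without FA).

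The other membrane members moved less. BST2 (tetherin), which holds budding virus at the cell surface, fell in IMS-M2-FA from 236.1 to 183.8 FPKM (-0.36, adjusted p = 0.0136) and did not pass elsewhere. The adjusted p was 0.0679 with DMSO replicate 1 left out and 0.0595 with OTX replicate 2 left out, which ended that call. LGALS3BP, a secreted galectin-binding glycoprotein, fell in IMS-M2 from 21.9 to 12.7 FPKM with FA and from 25.7 to 19.8 FPKM without, and was under 0.1 FPKM in each U937 group mean. Its call without FA was lost without DMSO replicate 1 or 3 or OTX replicate 1 or 2, with adjusted p up to 0.102. PLSCR1, a phospholipid scramblase, rose in IMS-M2+FA (21.5 to 29.6 FPKM) and in both U937 comparisons (0.41 and 0.68).

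Among the cytosolic restriction factors, TRIM22, a ubiquitin ligase, fell in all 4 comparisons. In IMS-M2+FA it was at 41.9, 41.9 and 41.3 FPKM with DMSO and at 15.2, 14.9 and 14.9 FPKM with OTX (-1.42, SE 0.0627, adjusted p = 1.49e-09). In IMS-M2-FA it was at 39.8, 39.9 and 40.2 FPKM with DMSO and at 14.7, 15.2 and 13.5 FPKM with OTX (-1.41, SE 0.0627, adjusted p = 1.95e-09). The values were the same within each treatment to a few FPKM in both media, with no overlap between treatments.

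CMPK2, a mitochondrial nucleotide kinase whose gene neighbours RSAD2, fell in all 4 comparisons too. In IMS-M2-FA it was at 22.7, 22.5 and 21.4 FPKM with DMSO and at 8.96, 9.09 and 8.97 FPKM with OTX (-1.21, SE 0.0711, adjusted p = 2.42e-08), with no overlap. RSAD2 (viperin), which makes a chain-terminating nucleotide, fell in IMS-M2+FA from 5.85 to 2.43 FPKM (-1.001, adjusted p = 1.18e-06) and did not pass in IMS-M2-FA (6.85 and 6.08 FPKM). MX2, a dynamin-like GTPase, was a gene of U937 with 48.7 FPKM in DMSO with FA and fell to 26.2 FPKM (-0.87, adjusted p = 1.48e-06). It was at 0.613 FPKM in IMS-M2+FA with DMSO.

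In the ISG15 pathway the mRNAs of the modifier and its enzymes did not move together. UBE2L6, its conjugating enzyme, and USP18, which removes ISG15 and dampens the receptor, fell in all 4 comparisons. USP18 changed by -1.05, -0.95, -0.96 and -1.02 in IMS-M2+FA, IMS-M2-FA, U937+FA and U937-FA. HERC5, the ligase, was listed at 0 in 6 of the 12 IMS-M2 libraries and in U937 rose from 4.11 to 7.70 FPKM with FA and from 4.05 to 7.83 FPKM without. ISG15 itself passed only in U937-FA (0.65, adjusted p = 0.0216), where it was at 35.5 ± 11.1 FPKM with DMSO and 54.4 ± 5.85 FPKM with OTX (mean ± SD, n = 3 libraries). The call was lost without DMSO column 2 (adjusted p = 0.0597) or OTX column 1 (0.0768).

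PARP9 and DTX3L share 1 locus in the tables (chromosome 3, 122246759 to 122294049, hg19), so reads near their shared start may be split between them. PARP9, the partner of the DTX3L ubiquitin ligase, fell in IMS-M2+FA (-0.36) and U937+FA (-0.38) and rose in U937-FA (0.23, adjusted p = 0.0443). The rise lost its call without any DMSO column or without OTX column 1 or 2, with adjusted p up to 0.146. DTX3L passed in none of the 4 OTX comparisons.

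IFI6, a small mitochondrial protein, rose in all 4 comparisons. In U937+FA it was at 38.1, 52.1 and 48.4 FPKM with DMSO and at 104.1, 98.0 and 86.9 FPKM with OTX (1.05, SE 0.141, adjusted p = 7.16e-05). In U937-FA it was at 84.8, 82.1 and 67.6 FPKM with DMSO and at 208.6, 241.8 and 183.9 FPKM with OTX (1.42, SE 0.141, adjusted p = 6.68e-06). No groups overlapped, and U937-FA with OTX held the highest levels. IFI35, a leucine zipper protein, rose in IMS-M2+FA and in both U937 comparisons (0.25, 0.48 and 0.99). In IMS-M2+FA its adjusted p was 0.0703 with DMSO replicate 2 left out and 0.0751 with OTX replicate 1 left out, so either removal ended the call.

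Few members had a called difference between their responses to OTX with and without FA. The difference of the changes, without FA minus with FA, was tested in the fit to the 12 libraries of a line. In IMS-M2 it was called higher in 4 of 35 members and lower in 1, where 3.33% and 3.61% of all genes were called. In U937 it was called higher in 5 of 36 and lower in 0, where 0.741% and 1.27% were called. The members' median difference was 0.23 in IMS-M2 and 0.23 in U937, against 0.03 and -0.05 for all genes. At an unadjusted p under 0.05, limma gave 14 higher and 2 lower in U937, where 12.8% and 21.1% of all genes met it, and 12 higher and 3 lower in IMS-M2, where 15.3% and 14.8% did. The counts of members called higher changed whichever single library was left out. In IMS-M2 the higher count was 12 without IMS-M2+FA DMSO replicate 1, 5 without IMS-M2-FA OTX replicate 2 and 1 without any single one of the other 10. In U937 it was 11 without U937+FA DMSO replicate 1 or U937-FA DMSO column 1, 3 without U937-FA OTX column 0 and 0 without any single one of the other 9.

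In IMS-M2 the called members were IFITM1 (0.93), RSAD2 (0.85), SAMD9L (0.44) and PARP14 (0.43), each with a more positive change without FA, and IFI16 (-0.79). The calls of IFITM1, SAMD9L and PARP14 were each lost without any single one of 10 libraries. The calls of RSAD2 (adjusted p = 0.00626) and IFI16 (adjusted p = 0.00393) were kept without each of the 12 libraries. RSAD2 was at 5.39, 6.25 and 5.92 FPKM with DMSO and at 2.75, 2.47 and 2.07 FPKM with OTX in IMS-M2+FA. Without FA it was at 7.31, 6.80 and 6.45 FPKM with DMSO and at 5.76, 5.75 and 6.74 FPKM with OTX, and these groups overlapped. SAMD9L, a paralogue of the poxvirus restriction factor SAMD9, had group means between 0.669 and 1.11 FPKM in IMS-M2, near the level needed for a test.

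In U937 the called members were IFIT2 (0.86, adjusted p = 0.0379), PARP9 (0.61), XAF1 (0.60), IFIT3 (0.60) and IFIT1 (0.50). All were more positive without FA, and each lost its call without any single one of 9 (IFIT2, IFIT3, PARP9) or 10 (IFIT1, XAF1) of the 12 libraries. With a pseudocount of 0.1 FPKM, IFIT1 (adjusted p = 0.0559), IFIT2 (0.0522), IFIT3 (0.0538) and PARP9 (0.0522) lost the call too, and XAF1 kept it. IFIT2 went from 0.257 to 1.29 FPKM with FA and from 0.313 to 3.35 FPKM without it. XAF1, which binds the apoptosis inhibitor XIAP, went from 1.21 to 0.337 FPKM with FA and from 0.896 to 0.738 FPKM without it.

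**Figure D5:**
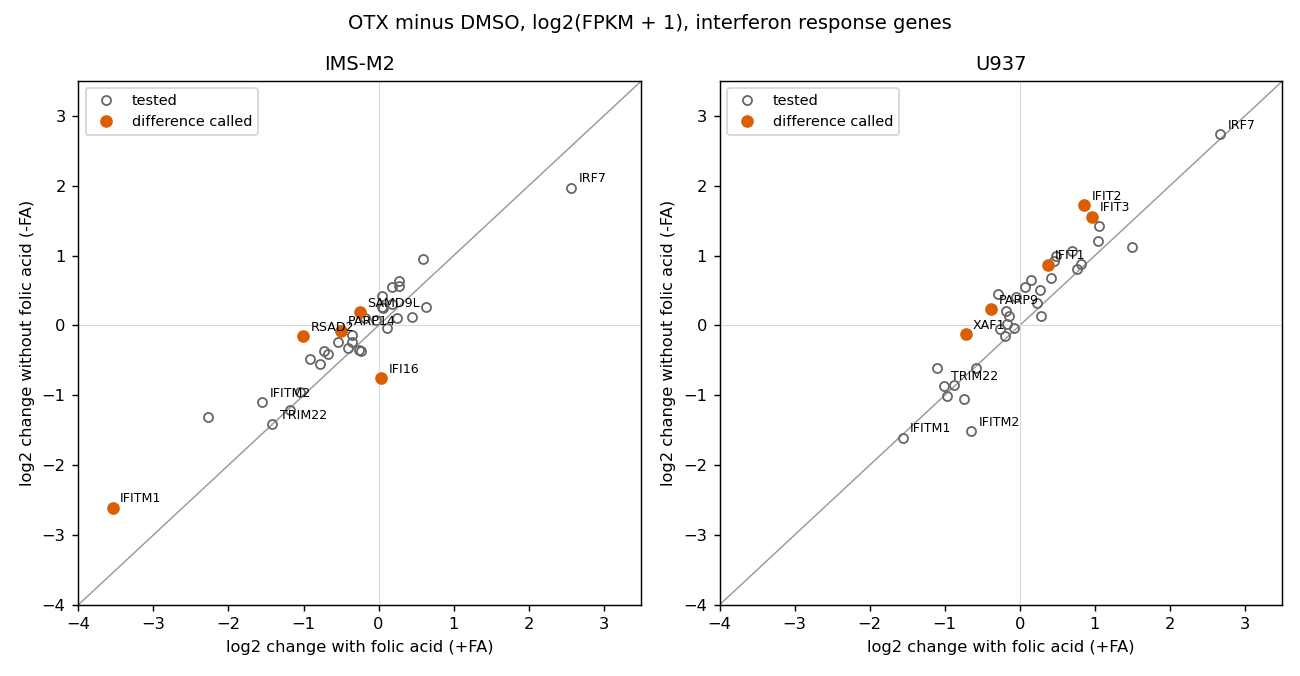
Change with OTX in log2(FPKM + 1) with FA (x axis) against that without FA (y axis) for each member tested, 1 panel per line, with the diagonal of equal change. Points above the diagonal changed more positively without FA, and filled points are the called differences, 5 in IMS-M2 and 5 in U937. A few other members are named.

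Between the lines a difference in the response was called in more members. The difference, U937 change minus IMS-M2 change, was tested over all 24 libraries. With FA it was called higher in 20 of 41 members and lower in 4, where 27.7% and 22.9% of all genes were called. Without FA it was called higher in 21 and lower in 3, where 21.5% and 21.5% were called. Of the 41, 30 were tested in both lines, and the rest entered through a single line. In the other line log2(FPKM + 1) keeps the change of such a gene small, so these counts also depend on where genes are expressed. With a pseudocount of 0.1 FPKM the limma call with FA was lost for MX2 (-0.02, adjusted p = 0.873) and SAMD9L (0.09, 0.705). It was also lost for TRIM22 (0.12, 0.488) and XAF1 (-0.49, 0.0562). The members' median difference was 0.24 with FA and 0.36 without it, against 0.04 and -0.02 for all genes. With FA the largest were IFITM3 (2.13), IFITM1 (1.98), RSAD2 (1.35), IRF1 (1.32) and OAS1 (1.23). IFITM3 and RSAD2 were under 1 FPKM in every U937 group mean, so most of each difference is the fall in IMS-M2.

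Without FA the largest line differences were IFI16 (1.97), OAS1 (1.48), IFIT2 (1.31), IFIT3 (1.30) and IFITM1 (1.01). IFI16 and OAS1 moved in opposite directions, whereas IFITM1 fell in both lines and fell further in IMS-M2. The 3 called lower were MX2 (-0.75), UBE2L6 (-0.64) and IFIH1 (-0.28). The IFIH1 difference lay at the threshold (adjusted p = 0.05) and lost its call without any single one of 9 libraries, with adjusted p up to 0.118. How the tables of the lines were scaled to each other is not given in the sources used here, so only changes within tables enter these tests.

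Genes of the pathway outside the members were listed by role, and their counts stand beside the shares of all tested genes called higher and lower, which were 29.8% and 33.4% in IMS-M2+FA, 27.5% and 30% in IMS-M2-FA, 29.1% and 27% in U937+FA and 28% and 31.7% in U937-FA. Of 10 receptor and signalling genes tested, 4 rose and 0 fell in IMS-M2+FA (40% and 0%, median log2 change 0.12), 5 rose and 1 fell in IMS-M2-FA (50% and 10%, 0.21), 8 rose and 0 fell in U937+FA (80% and 0%, 0.43) and 7 rose and 0 fell in U937-FA (70% and 0%, 0.51). JAK1, the receptor kinase, rose by 0.98, 0.96, 1.07 and 1.04 in the same order of comparisons.

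Of the negative regulators, 9 of 15 rose and 1 fell in IMS-M2+FA, 8 of 15 and 1 in IMS-M2-FA, 4 of 14 and 2 in U937+FA, and 5 of 14 and 2 in U937-FA. The shares that rose were 60%, 53.3%, 28.6% and 35.7% in that order, and those that fell 6.67%, 6.67%, 14.3% and 14.3%. SOCS3, a feedback inhibitor of JAK kinases, rose in IMS-M2+FA from 20.2 to 88.5 FPKM, whereas PTPN6, the phosphatase SHP-1, fell from 97.8 to 14.0 FPKM. Of the sensors and inducers of interferon, 2 of 11 rose and 5 fell in IMS-M2+FA, 1 and 3 of 11 in IMS-M2-FA, 4 and 2 of 12 in U937+FA, and 4 and 3 of 12 in U937-FA. Between 9.09% and 33.3% of them rose and between 16.7% and 45.5% fell. IRF5, a factor that induces interferon downstream of toll-like receptors, fell in IMS-M2+FA from 9.99 to 0.508 FPKM and in IMS-M2-FA from 13.0 to 0.805 FPKM. IRF8, a myeloid factor of the same family, fell in U937+FA from 53.4 to 12.7 FPKM.

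Of 36 other type I interferon targets, 9 rose and 16 fell in IMS-M2+FA and 12 rose and 12 fell in IMS-M2-FA. Of 32 tested in U937, 9 rose and 7 fell with FA and 14 rose and 8 fell without it. The shares that rose lay between 25% and 43.8% and those that fell between 21.9% and 44.4%, beside 27.5% to 29.8% and 27% to 33.4% of all tested genes. CXCL10, a chemokine, rose in IMS-M2+FA (0.682 to 3.21 FPKM), and HELZ2 rose in all 4 comparisons by 1.15 to 1.73. TRIM14 fell in all 4, by 0.97 in IMS-M2+FA. Of the targets of interferon gamma, 2 of 12 rose and 9 fell in IMS-M2+FA, 6 and 6 of 12 in IMS-M2-FA, and 0 of 7 rose in either U937 comparison while 5 and 6 fell. Between 50% and 85.7% of these targets fell in a comparison. GBP5, a guanylate-binding protein, rose in IMS-M2+FA from 8.38 to 31.9 FPKM, and CIITA, the activator of MHC class II genes, fell from 3.42 to 0.119 FPKM.

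Summed levels of marker lists moved with OTX as well. The summed level of 15 myeloid markers went from 337.2 to 357.6 FPKM per library to 166.6 to 181.9 FPKM in IMS-M2+FA, and from 1958 to 2330 FPKM to 1252 to 1529 FPKM in U937+FA. Such a sum follows its highest markers and not each of them. The mean of PTPRC rose in U937, from 39.6 to 92.4 FPKM with FA and from 49.1 to 90.4 FPKM without it. It fell in IMS-M2, and the means of SPI1 and CD33 were lower with OTX in each line and medium. Between 9 and 11 of the 15 were at 1 FPKM or more in a group. Of 10 lymphocyte markers, 3 were at 1 FPKM or more in IMS-M2 with DMSO, 1 with OTX and 4 or 5 in the U937 groups. Their sum went from 28.5 to 33.6 FPKM to 5.90 to 8.63 FPKM in IMS-M2+FA and from 292.4 to 333 FPKM to 123 to 133.4 FPKM in U937+FA. CD3G, CD8A and MS4A1 were under 0.1 FPKM in every group. Of 8 epithelial and stromal markers, 4 were at 1 FPKM or more in IMS-M2 and 1 in U937. Their sum was lower with OTX in IMS-M2+FA, from 137.8 to 147.4 FPKM to 91.7 to 97.2 FPKM. It was higher with OTX in U937+FA, at 443.4 to 463.4 FPKM after 138.8 to 166.8 FPKM. In U937+FA every marker of this list but VIM was under 0.1 FPKM with either treatment, so that rise is one of VIM. The myeloid, lymphocyte, epithelial and stromal sums moved the same way without FA in each line. EPCAM, KRT19 and COL1A2 were under 0.1 FPKM in every group. Of 5 markers of the plasmacytoid dendritic cell, 1 was at 1 FPKM or more in every group, and the sum lay between 1.20 and 14.7 FPKM in a library. LILRA4 and IL3RA were under 0.1 FPKM in every group, CLEC4C in all but U937-FA with DMSO, and GZMB in all but IMS-M2 with DMSO. The 5 erythroid and megakaryocyte markers summed to 52.0 to 68.2 FPKM with DMSO and 10.7 to 14.2 FPKM with OTX in IMS-M2+FA, and to at most 0.579 FPKM in U937. The part of these genes in the members' changes was not tested.

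Levels between tables were set side by side without a test. With DMSO, U937+FA lay below IMS-M2+FA by a median of -0.92 in log2(FPKM + 1) over the 36 members at 1 FPKM or more in either group, against -0.03 for all genes. Of these, 17 were lower by at least 1, which 13.2% of all genes were. LGALS3BP was at 21.9 FPKM in IMS-M2 and 0.038 FPKM in U937, and MX2 at 0.613 and 48.7 FPKM. Removal of FA went with a median difference of 0.14 in IMS-M2 with DMSO (21 of 34 members above 0) and 0.16 in U937 with DMSO (25 of 32), against -0.02 and 0.05 for all genes. With OTX these medians were 0.26 and 0.40 (28 of 35 and 30 of 35 above 0), against medians of all genes near 0. IFI6 and OAS1 were the 2 members at least 1 higher without FA in U937 with OTX.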

How the data were processed

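RNA of 24 libraries (8 groups of 3) was measured. The authors deposited 4 tables of FPKM values per gene, 1 for each line and medium. Per the submitters' processing notes, the build was hg19 and the tools were Cuffdiff 2.2.1, TopHat2 2.1.1 and bcl2fastq 2.17.1.14. Depth is not given in the sources used here, so no counting interval is printed. The U937-FA columns are numbered from 0 while the labels count from 1, so they were mapped to groups only and are called columns.

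Changes were tested on log2(FPKM + 1) with R 4.3.3 and limma 3.58.1, in group means models with an intensity trend over the 12 libraries of a line (24 for line differences). A gene entered where its mean reached 1 FPKM in some group. Adjusted p-values are Benjamini-Hochberg over all genes tested, with a threshold of 0.05. Values per library are given for IRF1, IRF7, IRF9, STAT2 and, in each OTX comparison, for the 5 called members with the largest changes and at least 5 FPKM in a group. The 5 largest called members of each difference are named, and up to 3 called genes of a pathway list per direction. RSAD2 per library, the ISG15 pathway and marker genes were added after their values were seen. The members and lists were chosen with earlier results of these data known. Alternatives were another pseudocount, other filters, rescaled libraries, no trend, each table alone, a replicate block and leaving out each library. The values of 1 gene of a pathway list are not reported here.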

Additional observations from a re-analysis of the deposited data

Results flagged for a closer look

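Each value here is a difference between 2 changes under the same OTX contrast that passed a direct test of that difference (limma interaction contrast, Benjamini-Hochberg adjusted over all genes tested), with changes in log2(FPKM + 1). For FA in IMS-M2, without minus with, these were IFITM1 (0.931), RSAD2 (0.851), IFI16 (-0.792), SAMD9L (0.437) and PARP14 (0.429). For FA in U937 they were IFIT2 (0.862), PARP9 (0.608), XAF1 (0.597), IFIT3 (0.595) and IFIT1 (0.497).

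For the lines with FA, U937 minus IMS-M2, they were IFITM3 (2.129), IFITM1 (1.984), RSAD2 (1.35), IRF1 (1.315) and OAS1 (1.233). For the lines without FA they were IFI16 (1.972), OAS1 (1.476), IFIT2 (1.307), IFIT3 (1.301) and IFITM1 (1.006). Groups of 3 libraries are too small for a check of single outlying libraries.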

How the results depend on the processing

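No member's change reversed its direction under an alternative where it was called in the main fit or in that alternative. Reversals of members called in neither were not counted. In the 4 OTX comparisons, 1689 of the values recomputed per member kept their side of the threshold, 57 lost the call and 13 gained it. Of the members called, 20 of 25 in IMS-M2+FA, 19 of 26 in IMS-M2-FA, 23 of 25 in U937+FA and 25 of 28 in U937-FA kept the call in every alternative. With a filter at 5 FPKM, fewer genes were tested, and 6 in place of 10 members fell in U937+FA, 13 in place of 20 rose in U937-FA, and 0 in place of 5 were called higher for FA in U937. With a pseudocount of 0.1 FPKM, 1 in place of 5 members was called higher for FA in U937, and 2 in place of 4 were called lower between the lines with FA; the cause was not tested.

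Leaving out 1 library at a time gave 4 to 8 members higher in IMS-M2+FA (7 with all libraries). It gave 1 to 12 higher (4) and 1 to 2 lower (1) for FA in IMS-M2, and 0 to 11 higher (5) and 0 to 2 lower (0) for FA in U937.

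Replicate numbers are shared by groups, and the main fits did not use them. Deviations of same-numbered libraries correlated at 0.052, 0.276 and 0.074 in IMS-M2+FA, where differently numbered ones gave -0.162 to 0.068. In IMS-M2-FA they correlated at 0.076, 0.214 and 0.192, each above the differently numbered ones (-0.182 to 0.014). In U937+FA they correlated at -0.336, 0.129 and -0.239, where differently numbered ones gave -0.32 to 0.5. With the number as a replicate block, 8 in place of 4 members were called higher and 3 in place of 1 lower for FA in IMS-M2. The OTX counts with the block were 8 higher and 19 lower in IMS-M2+FA, 10 and 16 in IMS-M2-FA, and 12 and 10 in U937+FA. The U937-FA columns carry no label number, so no paired analysis was possible there. Without counts, the depth behind low levels such as IFIT1 and SAMD9L is unknown.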
